A study of Mus musculus with 12 samples.

Results

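Cytosolic ribosomal protein genes were examined by RNA-seq in mouse embryonic stem cells with or without a version of eIF2α that cannot be phosphorylated. Members were all genes whose symbol joins Rpl, Rps or Rplp to a number, together with Rpsa. The Rps6k kinases and symbols with -ps were left out. The rule gave 87 of the 22416 genes in the table. Of these, 77 were canonical subunits: 43 of the large subunit, 31 of the small subunit and 3 of the stalk. Another 9 were paralogs or retrogenes: Rpl3l, Rpl7l1, Rpl10l, Rpl22l1, Rpl36al, Rpl39l, Rps27l, Rps27rt and Rps23rg1. The remaining member, Rps19bp1, encodes a protein that binds Rps19 and is no ribosomal protein. Fau and Rack1 also encode ribosomal proteins but lie outside the symbol rule.

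In knock-in (KI) cells both copies of the gene were the eIF2α A allele (eIF2α A/A), in which alanine replaces the serine that stress kinases phosphorylate. Wild-type (WT) cells were eIF2α+/+. Both were kept for 6 days in serum-free medium, either with leukaemia inhibitory factor (LIF) or with LIF plus the MEK inhibitor PD0325901 and the GSK3 inhibitor CHIR99021 (LIF/2i). The groups were KI in LIF, KI in LIF/2i, WT in LIF and WT in LIF/2i, with 3 libraries each. The study asked how eIF2α phosphorylation bears on the naive state of pluripotency. RNA came from the supernatant of a spun lysate, and the labels do not say whether the replicates of a group were separate cultures or clones. The counts hold no information on the mutated codon, so they do not check the genotype.

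Ribosomal proteins are built into the small and the large ribosomal subunit in the nucleolus around ribosomal RNA, and nearly all are needed in equal number. Their messenger RNAs are among the most abundant in growing cells and typically begin with a 5′ terminal oligopyrimidine (TOP) tract, a C followed by a run of pyrimidines, through which mTOR and the protein LARP1 control their translation. Phosphorylated eIF2α lowers general translation initiation, so these genes are the parts list of the machine that the phosphorylation acts on. Embryonic stem cells are known for fast growth with comparatively low translation.

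The libraries held 2307219 to 9713857 counts, so that 3 counts corresponded to 0.309 to 1.3 CPM (the count scaled to a common library total). In WT LIF, the counts of replicates 1 and 3 lay closer together than sampling noise alone would place them (chi-square per degree of freedom 0.858 over 12373 genes, against 2.61 to 40.2 for all other pairs of a group). They were averaged and counted as 1 sample, which left n = 2 in WT LIF and n = 3 in the other groups. Embryonic stem cell markers summed to 3237 to 3832 CPM in KI LIF, 2991 to 3512 in KI LIF/2i, 2594 to 2689 in WT LIF and 2769 to 2999 in WT LIF/2i. Single markers went in opposite directions within this sum. Utf1 had means of 1120, 430, 600 and 178 CPM in these groups, and Nanog 252, 630, 311 and 491 CPM. Of 8 fibroblast markers 1 was at 0 in all samples, and their sum was 101 to 149 CPM in KI LIF, 17.7 to 25.3 in KI LIF/2i, 33.3 to 398 in WT LIF and 6.53 to 19.5 in WT LIF/2i. Most of the 398 CPM came from Col1a1 and Col1a2, with 169 and 206 CPM in WT LIF replicate 2. Libraries differed within groups. The summed level of Y-linked genes was 36.7 and 41.6 CPM in KI replicate 1 in LIF and LIF/2i. It was 1.43 to 3.9 CPM in KI replicates 2 and 3, and 44.8 to 261 CPM in WT libraries. The tests without a replicate block take the KI samples as independent. If KI replicates 2 and 3 shared an origin, n = 3 would be too high for KI. A difference between cell lines could then not be told apart from one of genotype. In bulk RNA, fewer cells of a type and less RNA per cell cannot be told apart.

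The start of the transcript was read for each member, since the TOP tract is the sequence feature by which the family is known. RefSeq start sites on GRCm38.p6 were on hand for 67 of the 87 members. A tract was scored as a C at the first transcribed base followed by at least 4 bases that were C or T, read on the strand of the gene. Of 57 canonical subunits with an entry 13 (22.8%) began with such a tract at an annotated start. Of 10 other members 1 did (10%, Rps27rt), as did 2 of 14 genes on a list of other TOP messenger RNAs, and 813 of 27025 genes in the whole table (3.01%). Where the tract could begin up to 5 bases from the annotated start, 27 of 57 canonical subunits held it (47.4%), as did 4 of the 10 other members (40%) and 5 of the 14 other TOP messenger RNAs (35.7%), against 21.2% of all genes. The windows below show 10 bases before the annotated start and 18 bases from it, with the tract in capitals. The first 5 are canonical subunits with a tract, and the last 3 are paralogs described below that held none at the annotated base.
Rpl15, chr14:18270969-18270996, minus strand: agaaagccttCTTCCTTTCCTCTggcgg
Rpl28, chr7:4792955-4792982, plus strand: tctcgtgtctCTCTTTCCgtctccggcc
Rpl38, chr11:114668570-114668597, plus strand: aagcctcgttCTTTCCCCgttctcttcg
Rps6, chr4:86857350-86857377, minus strand: gaagtcgggcCTCTTTTTCgtgacgcct
Rplp2, chr7:141447641-141447668, plus strand: cagcgtcttcCTTTCgccgccggacgcc
Rpl22l1, chr3:28805498-28805525, plus strand: gcgcaagcccgttctcttcccacggctg
Rpl7l1, chr17:46782639-46782666, minus strand: gctgcgcaagcgcagtagctgaagcacc
Rpl10l, chr12:66284384-66284411, minus strand: cctccattttgcggctggcggtgggcac
Transcription starts were not measured here, so these windows describe the annotation. The files count reads in coding sequence, so none of these bases entered a count.

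The members together held 1.07 to 1.22% of the counts of a library. Their share was 1.19% ± 0.0306 in KI LIF, 1.12% ± 0.0503 in KI LIF/2i, 1.11% ± 0.0141 in WT LIF (n = 2) and 1.09% ± 0.0321 in WT LIF/2i (SD, n = 3 for the others).

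Although the proteins are needed in equal number, the deposited counts gave very unequal levels. At the high end, per kb of coding sequence and as a mean over all samples, Rpl8 had 2767, Rps3 1327, Rps29 996 and Rplp1 740 CPM per kb. Rpl8 lies next to the peptidyl transferase centre, Rps3 near the entry of the messenger RNA, and Rplp1 in the stalk. At the other end Rpl29 had 0.781, Rpl17 0.819, Rpl5 1.66, Rpl10 2.11 and Rpl9 2.21 CPM per kb. The median canonical subunit stood at 134 CPM per kb, with 3 above 1000, 42 between 100 and 1000, 18 between 10 and 100 and 14 under 10. Rpl5, which with Rpl11 and 5S ribosomal RNA binds the p53 inhibitor MDM2, had 98 counts in all 12 libraries, whereas Rpl11 stood at 133 CPM per kb. Rpl29, Rpl17, Rps27rt and Rps23rg1 had 18, 27, 14 and 14 counts in all and did not pass the filter on low counts, so 83 members were tested.

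Ribosomal protein genes have many processed pseudogenes, and how reads with several matches were treated is not given in the sources used here. Coding sequences were therefore set against all GENCODE M21 transcripts in windows of 30 bases. In 31 members no window was unique to the gene, and 84 shared at least 1 window with a pseudogene. A member shared windows with a median of 15 other genes, and Rpl7a with 164. The 23 members with at least 20% of windows unique had a median of 210 CPM per kb. The 33 members above 0 and under 20% had a median of 95.8, and the 31 with none had 103. Across the 77 canonical subunits the correlation of log2 level with the unique share was r = 0.44 and Spearman's rho = 0.35. With the number of genes sharing a window it was r = -0.47 and rho = -0.47. Over all 87 members both were weaker, with r = 0.25 and rho = 0.23 for the unique share and r = -0.36 and rho = -0.29 for the number of genes. These are descriptions over genes counted in the same libraries. High levels were also seen without unique sequence, since Rps29 had 996 and Rpsa 206 CPM per kb with no unique window. Rpl3l, the striated muscle paralog of Rpl3, had only unique windows and stood at 4.41 CPM per kb. The part of shared sequence in these levels was not tested, and a level of a member with few unique windows may include or lack reads of its copies.

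**Figure D1:**
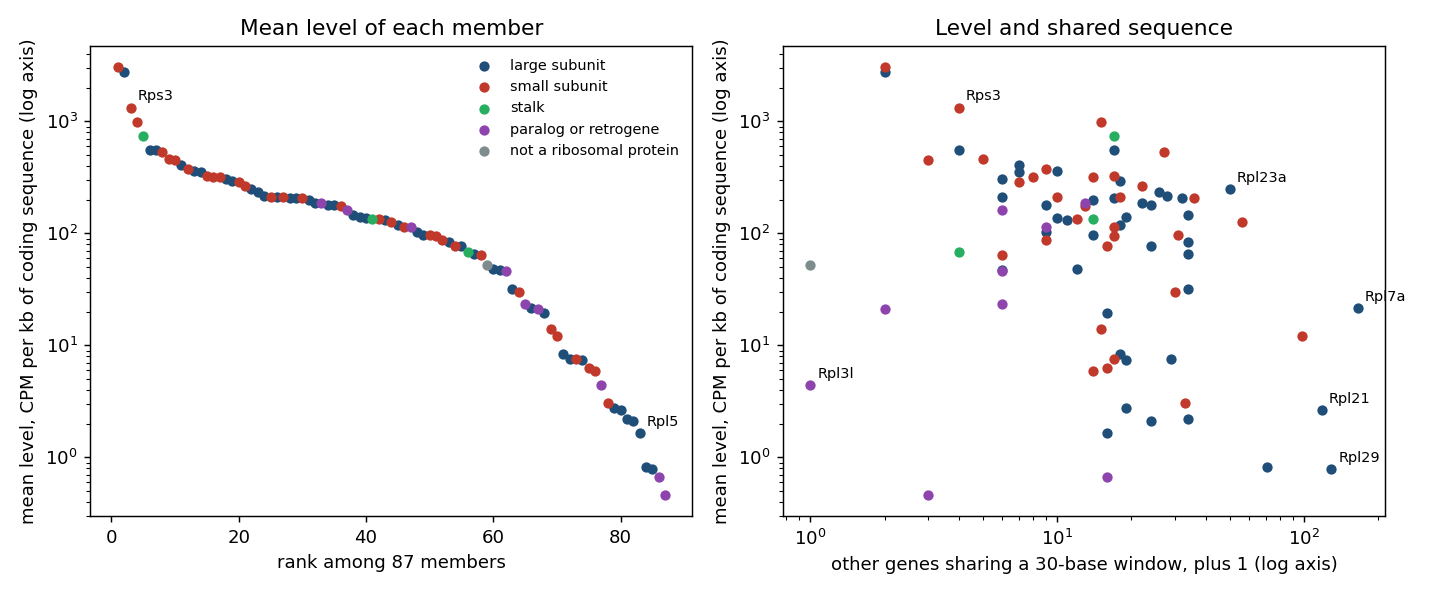
Mean level of the 87 members over 11 samples, in CPM per kb of coding sequence on a log axis, by rank (left) and against the number of other genes that share a 30-base window plus 1 (right, log axis); each point is a gene, coloured by class. Rps3 stands at 1327 and Rpl29 at 0.781 CPM per kb, and the canonical subunits under 10 CPM per kb all share windows with several genes, while Rpl7a shares windows with 164 genes.

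Replicates of the well-counted members lay close together. The median within-group SD on the log2 scale was 0.12 for the 4 members at or above 500 CPM and 0.15 for the 42 between 50 and 500 CPM, against 0.18 and 0.20 for all genes at those levels. For the 26 members between 5 and 50 CPM it was 0.34 (all genes 0.33), and for the 11 under 5 CPM it was 0.42 (all genes 0.56). At the narrow end Rps3a1 had a within-group SD of 0.06. Rpl39l had the widest, 1.13, ahead of Rpl21 with 0.75 and Rpl22l1 with 0.74.

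Knock-in and wild-type cells were compared first in LIF/2i. None of the 83 members passed the test (edgeR's quasi-likelihood test with Benjamini-Hochberg adjustment over all genes at 0.05), where 2.22% of the 13239 genes tested did. At an unadjusted p under 0.05 there were 7 members, all higher in KI, where 20.5% of all genes had such a p. DESeq2 called 1 member, Rpl7l1 (6.88% of all genes), and limma-voom called 0 (2.52% of all genes). The family as a whole lay slightly above 0. The log2 fold change was above 0 for 60 of 83 members, against 52.1% of all genes. Its median was 0.13, with quartiles of -0.05 and 0.31, against a median of 0.02 over all genes. The median was 0.08 over 41 large subunit genes, 0.13 over 31 small subunit genes, 0.31 over the 3 stalk genes and 0.28 over 7 paralogs. For 58 members the 95% interval of the log2 fold change lay within ±1. Among the 46 members with a mean of at least 50 CPM the log2 fold changes ran from -0.41 to 0.48, and for 29 of them the interval lay within ±0.5.

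The shift in LIF/2i leaned on single libraries. KI LIF/2i replicate 3 was the highest of all 11 samples for 33 of 83 members (39.8%), against 15.6% of all genes. WT LIF/2i replicate 3 was the lowest for 24 members (28.9%), against 15.4% of all genes. Without KI LIF/2i replicate 3 the median was 0.06. Mitochondrially encoded RNA took 2.7% of counts in KI LIF/2i replicate 3, the highest share of all samples, and 1.17% in WT LIF/2i replicate 3, with 1.13 to 1.75% in the other LIF/2i libraries. Its part in the shift was not tested. KI and WT samples did not overlap for 11 members that were higher in KI and 2 that were lower, where 11.7% and 11.1% of all genes were higher or lower without overlap.

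Rpl7l1, a paralog of Rpl7 found in the nucleolus, had the smallest p in LIF/2i. It stood at 19.9, 17.2 and 29 CPM in KI and at 11.7, 12.5 and 10.9 CPM in WT. Every KI sample was above every WT sample. The log2 fold change was 0.90 ± 0.24 (SE), with an edgeR adjusted p of 0.0729 and a 95% interval of 0.38 to 1.42. In LIF the same gene had 18, 17.7 and 14.8 CPM in KI, against 21.2 and 16.2 CPM in WT. There the groups overlapped, and the log2 fold change was -0.14 ± 0.27 (adjusted p = 0.9, edgeR).

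Rplp2 encodes an acidic stalk protein that helps to recruit elongation factors. In LIF/2i it had 23.9, 33.1 and 53.4 CPM in KI, against 17.7, 20.4 and 20.7 CPM in WT. The groups did not overlap, and KI replicate 3 stood far above the other samples. The log2 fold change was 0.91 ± 0.29 (SE, edgeR adjusted p = 0.115). Without KI replicate 1 it was 1.12 and passed the test (adjusted p = 0.0274), and without KI replicate 3 it was 0.54 and did not. Over all 23 alternatives the adjusted p ran from 0.0274 to 0.341, and 1 of them passed. Rplp0, the stalk base, had 120, 138 and 138 CPM in KI and 102, 104 and 113 CPM in WT. All KI samples were higher, by 0.31 ± 0.12 on the log2 scale (adjusted p = 0.183). Rplp1, the other acidic stalk protein, had 244, 258 and 267 CPM in KI and 225, 263 and 230 CPM in WT. These overlapped, with a log2 fold change of 0.10 ± 0.12 (adjusted p = 0.65). Rps19bp1 had 26.4, 24.3 and 24.5 CPM in KI and 17.4, 18.4 and 14 CPM in WT, without overlap (0.59 ± 0.18, adjusted p = 0.106).

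In LIF, too, none of the 83 members passed edgeR's test between KI and WT, where 0.144% of all genes did. The unadjusted p was under 0.05 for 3 members (10.7% of all genes), 2 higher and 1 lower in KI. DESeq2 called 0 members (1.56% of all genes) and limma-voom 0 (0.0831%). Again 60 members lay above 0 (50.1% of all genes), with a median log2 fold change of 0.09 and quartiles of -0.03 and 0.21, against a median of 0.00 over all genes. This shift, too, differed between libraries. The median log2 deviation of the members from their means over all samples was 0.09, 0.06 and 0.01 in KI LIF. It was 0.01 in the averaged WT LIF sample and -0.07 in WT LIF replicate 2, so KI replicate 3 was level with the averaged sample. KI and WT samples did not overlap for 26 members that were higher in KI (16% of all genes) and 3 that were lower (15.8% of all genes). For 57 members the 95% interval lay within ±1. The 46 members at or above 50 CPM ran from -0.74 to 0.39.

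Rpl31, on the surface near the exit of the tunnel, had 37.7, 43.4 and 42.7 CPM in KI LIF, against 26.6 and 25.9 CPM in WT LIF. The groups did not overlap (log2 fold change 0.65 ± 0.28, adjusted p = 0.425). In LIF/2i it had 33.7, 32.6 and 17 CPM in KI and 29.1, 39.3 and 32.8 CPM in WT, with a log2 fold change of -0.28 ± 0.24 (adjusted p = 0.542). Rpl22, an RNA-binding protein of the large subunit, was the lowest of the 46 members at or above 50 CPM in LIF. Its log2 fold change was -0.74 ± 0.33 (adjusted p = 0.454, edgeR), and the lowest value over all 83 members was -1.10. The samples of Rpl22 are given next, because the KI replicates differed among themselves.

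**Figure D2:**
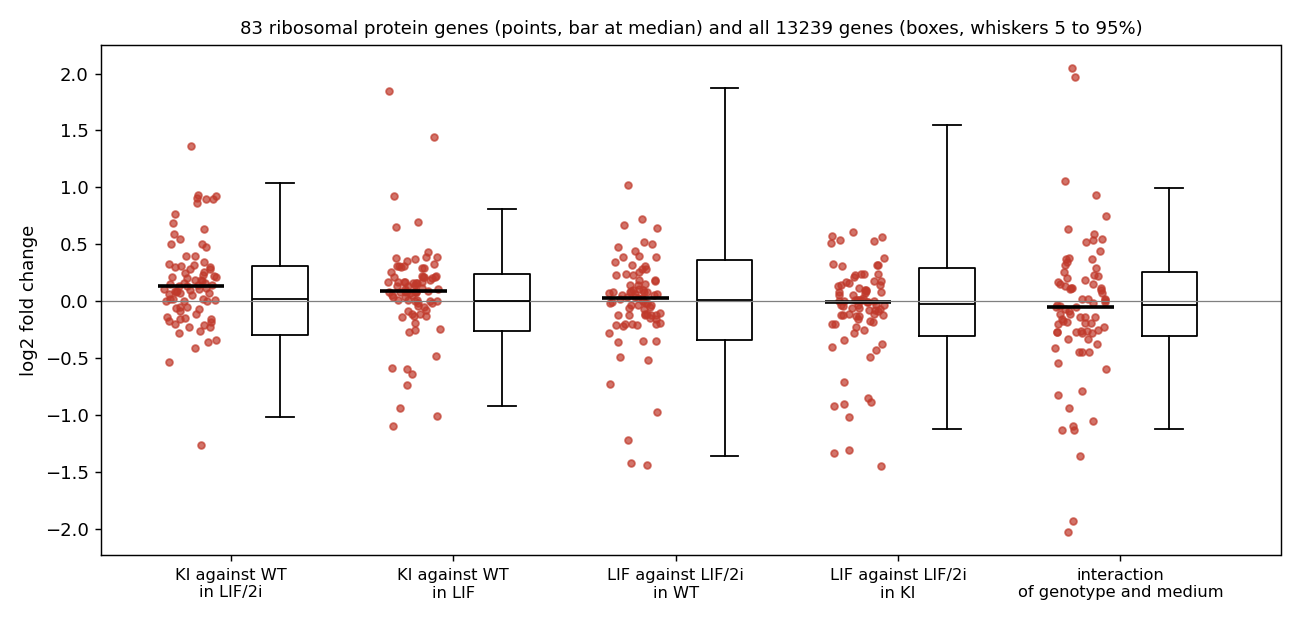
Log2 fold changes of the 83 tested members (points, with a bar at their median) and of all 13239 genes (boxes from the lower to the upper quartile, whiskers from the 5th to the 95th percentile) in each comparison. The member medians are 0.13, 0.09, 0.03, -0.01 and -0.05 from left to right. Between their quartiles the members span a narrower band than all genes in every comparison. Their fold changes also had smaller errors, with a median SE of 0.19 against 0.29 for all genes between media in WT. The band was not matched for level.

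Rpl22 had 91.7, 49 and 42.3 CPM in KI LIF and 107, 51.2 and 58.6 CPM in KI LIF/2i, against 98.9 and 105 CPM in WT LIF and 98.9, 97 and 93.7 CPM in WT LIF/2i. KI replicate 1 was at the WT level in both media, and KI replicates 2 and 3 were low in both. Rpl11, the MDM2-binding protein named above, had 100, 41.7 and 44.4 CPM in KI LIF and 81.9, 49.6 and 56.1 CPM in KI LIF/2i. In WT it had 88.5 and 97.6 CPM in LIF and 76.9, 88.8 and 58.1 CPM in LIF/2i. Here, too, KI replicates 2 and 3 were below all WT samples of their medium and replicate 1 was not, although KI LIF/2i replicate 3 was close to the lowest WT sample. Neither gene passed the test between KI and WT, with log2 fold changes of -0.41 ± 0.30 (Rpl22, adjusted p = 0.452) and -0.26 ± 0.31 (Rpl11, adjusted p = 0.663) in LIF/2i.

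Both genes lie toward the end of chromosome 4, Rpl11 from 136049731 to 136053393 and Rpl22 from 152325867 to 152334071 (GRCm38). The genes around each member were therefore read in every sample. For each library the log2 difference from the WT mean in the same medium was taken, on log2(CPM + 0.5), and its median over the tested genes within 5 Mb that were not members. Around Rpl22 the median of 114 genes was 0.01, -0.83 and -0.95 in KI LIF and 0.08, -0.79 and -1.0 in KI LIF/2i. It lay between -0.06 and 0.06 in the WT samples. Around Rpl11 the median of 140 genes was 0.02, -0.89 and -0.90 in KI LIF and 0.01, -0.82 and -0.97 in KI LIF/2i. On the same scale Rpl22 itself stood at -0.15, -1.05 and -1.26 in KI LIF and at 0.15, -0.91 and -0.72 in KI LIF/2i. Rpl11 stood at 0.11, -1.15 and -1.06 in KI LIF and at 0.16, -0.56 and -0.39 in KI LIF/2i. The neighbours of both genes were thus low in the same KI libraries as the members. In KI LIF replicates 2 and 3 both members lay below their neighbours, whereas in KI LIF/2i replicates 2 and 3 Rpl11 lay above its own. In 10 Mb bins of chromosome 4 the step lay at 130 Mb. From 120 to 130 Mb the medians over 108 genes were 0.01, 0.05, 0.18 and 0.09 in KI replicates 2 and 3 in LIF and in LIF/2i. From 130 to 140 Mb they were -0.87, -0.88, -0.78 and -0.95 over 141 genes.

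The same reading was made for all 83 tested members, each of which had at least 10 such neighbours. In 77 the neighbour median stayed between -0.35 and 0.42 in every KI sample. In 6 it reached 0.5 in size in at least 1 KI sample, a limit chosen after the values were seen: Rpl22, Rpl11, Rpl32, Rplp2, Rpl34 and Rpl36a. Rpl32 on chromosome 6 had 170, 114 and 101 CPM in KI LIF and 151, 111 and 156 CPM in KI LIF/2i, against 120 and 101 CPM in WT LIF and 93.2, 106 and 101 CPM in WT LIF/2i. Its neighbours were high in KI replicate 1, by 0.52 in LIF and 0.47 in LIF/2i, where Rpl32 itself was high by 0.62 and 0.60. In KI LIF/2i replicate 3 Rpl32 was high by 0.64 while its neighbours stood at 0.05. Rplp2 near the end of chromosome 7 had neighbours at -0.05, 0.56 and 0.46 in KI LIF and at 0.07, 0.49 and 0.40 in KI LIF/2i. The member itself stood at -0.41, 0.43 and 0.16 in KI LIF, below its neighbours in all 3 samples. In KI LIF/2i it stood at 0.28, 0.75 and 1.43, above them in all 3. Rpl36a on the X chromosome had neighbours at -0.15, 0.13 and 0.11 in KI LIF and at -0.16, 0.22 and 0.53 in KI LIF/2i. Rpl36a itself stood at -0.12, -0.07 and -0.63 in KI LIF and at 0.74, 0.27 and 1.27 in KI LIF/2i.

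Rpl34, a large subunit gene on chromosome 3, had 56.8, 62.2 and 55.9 CPM in KI LIF and 58.6, 58.5 and 84.3 CPM in KI LIF/2i. In WT it had 71.4 and 111 CPM in LIF and 60.3, 136 and 60.5 CPM in LIF/2i. WT replicate 2 was the high sample in both media. Its neighbours were high in the same libraries, by 0.39 in WT LIF and 0.55 in WT LIF/2i. Since 2 samples set against their own mean must be mirror images, the WT LIF value says only that replicate 2 was above the average of replicates 1 and 3. The number of gene copies was not measured, and the part of chromosome position in the levels of these members was not tested.

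**Figure D3:**
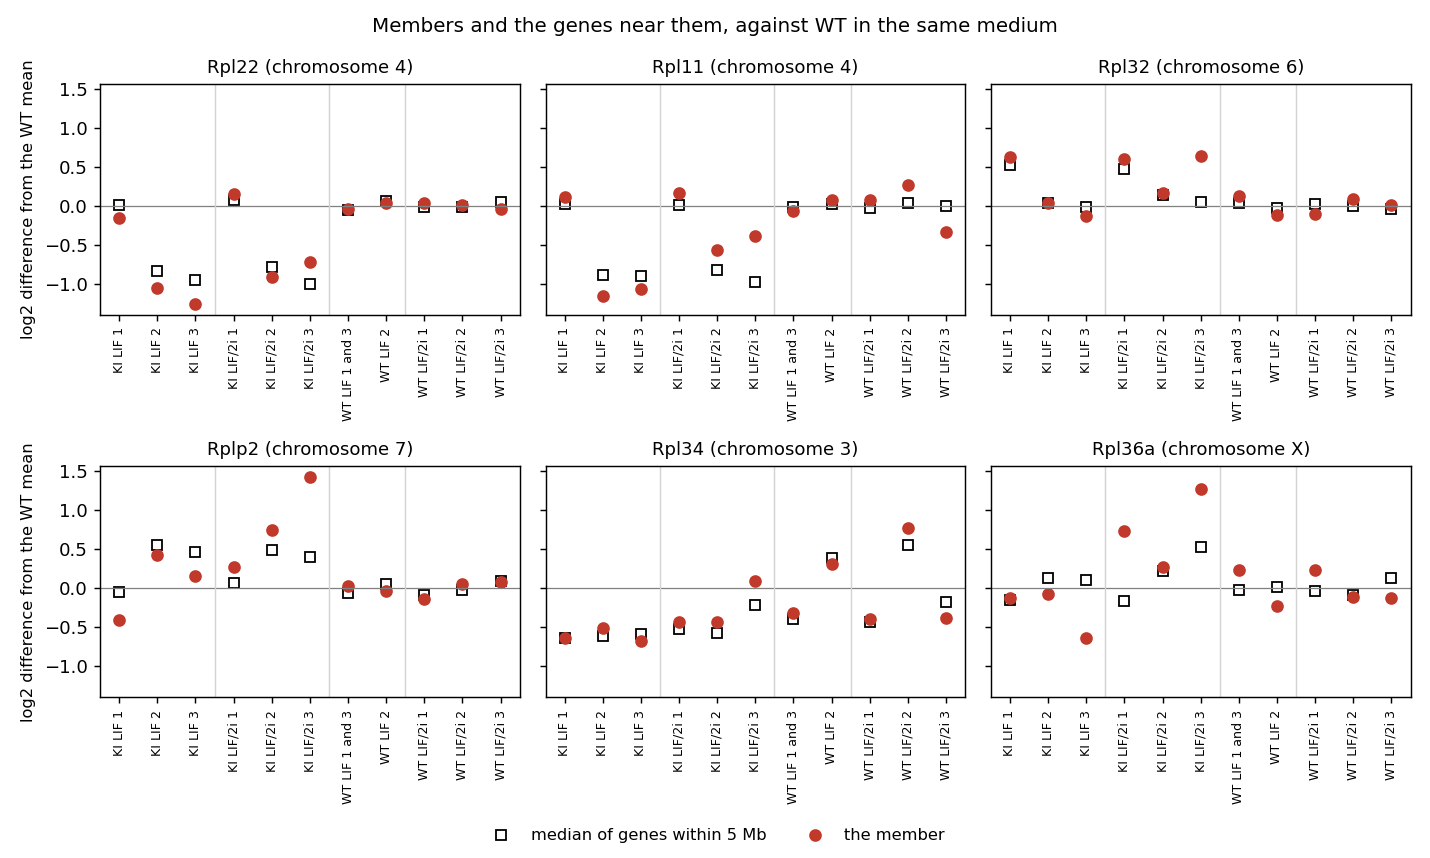
Log2 difference from the WT mean in the same medium (vertical axis) in each of the 11 samples (horizontal axis) for 6 members (red points) and for the median of the tested genes within 5 Mb of each (open squares). Rpl22 and Rpl11 and their neighbours are low in KI replicates 2 and 3, and Rpl32 and its neighbours are high in KI replicate 1. Rpl34 and its neighbours are high in WT replicate 2. Rplp2 and Rpl36a lie apart from their neighbours in several KI samples, as does Rpl32 in KI LIF/2i replicate 3.

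Paralogs replace their canonical partner in some tissues or cells, and 7 of the 9 were tested. Rpl22l1 is the paralog of Rpl22, whose protein is known to lower the Rpl22l1 transcript in mouse cells. Rpl22l1 had 5.89, 24.8 and 21.2 CPM in KI LIF and 9.61, 22 and 30 CPM in KI LIF/2i, against 16 and 17 CPM in WT LIF and 14.1, 14.4 and 10.9 CPM in WT LIF/2i. KI replicates 2 and 3 lay above all WT samples and KI replicate 1 lay below them. Per kb of coding sequence the ratio of Rpl22l1 to Rpl22 was 0.0673, 0.531 and 0.524 in KI LIF and 0.094, 0.452 and 0.538 in KI LIF/2i. It was 0.169 and 0.169 in WT LIF and 0.149, 0.156 and 0.123 in WT LIF/2i. Rpl22l1 lies on chromosome 3, away from Rpl22, and its 26 neighbours stood between -0.20 and 0.07 in all KI samples. Of the windows 7.94% were unique in Rpl22l1 and 42.5% in Rpl22. In KI replicate 1 Rpl22 was at the WT level while Rpl22l1 lay below all WT samples. Whether the level of Rpl22 bears on that of Rpl22l1 was not tested. With replicates this far apart, the log2 fold change of Rpl22l1 between KI and WT was 0.63 ± 0.46 in LIF/2i (adjusted p = 0.465, edgeR) and 0.08 ± 0.52 in LIF (adjusted p = 0.975).

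Rpl39l, a retrogene of Rpl39 known from male germ cells, had 30.1, 5.42 and 2.12 CPM in KI LIF and 36.6, 22 and 10.2 CPM in KI LIF/2i. In WT it had 18 and 29.7 CPM in LIF and 61, 70.5 and 34.4 CPM in LIF/2i. KI replicate 1 was the highest KI sample in both media, and the KI and WT samples overlapped. The log2 fold change between KI and WT was -1.26 ± 0.64 in LIF/2i (adjusted p = 0.284) and -0.94 ± 0.75 in LIF (adjusted p = 0.721). In LIF the value rested on single libraries, at -2.54 without KI replicate 1, -0.53 without KI replicate 2, -0.48 without KI replicate 3 and -0.55 without WT replicate 2, none past the test. Between LIF and LIF/2i in KI it was -0.89 ± 0.69 (adjusted p = 0.485), and without KI LIF replicate 1 it was -2.49 and passed the test (adjusted p = 0.0299). Its partner Rpl39 had 81.4, 92.4 and 76.6 CPM in KI LIF and 94.5 and 86.3 CPM in WT LIF. Rps27l, a paralog of Rps27 known in human cells as induced by p53, had 59.9, 47.4 and 51 CPM in KI LIF/2i and 39.8, 49.4 and 43.5 CPM in WT LIF/2i, which overlapped (0.25 ± 0.20, adjusted p = 0.49). Per kb Rps27l stood at 163 CPM and Rps27 at 6.31. Rps27 had no unique window whereas 61.2% of windows were unique in Rps27l. Rpl36al, a retrogene copy of Rpl36a, likewise stood above its partner at 114 against 19.3 CPM per kb, and both had no unique window. Rpl3l and Rpl36al differed between KI and WT by -0.34 ± 0.36 and 0.28 ± 0.19 in LIF/2i, neither past the test.

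**Figure D4:**
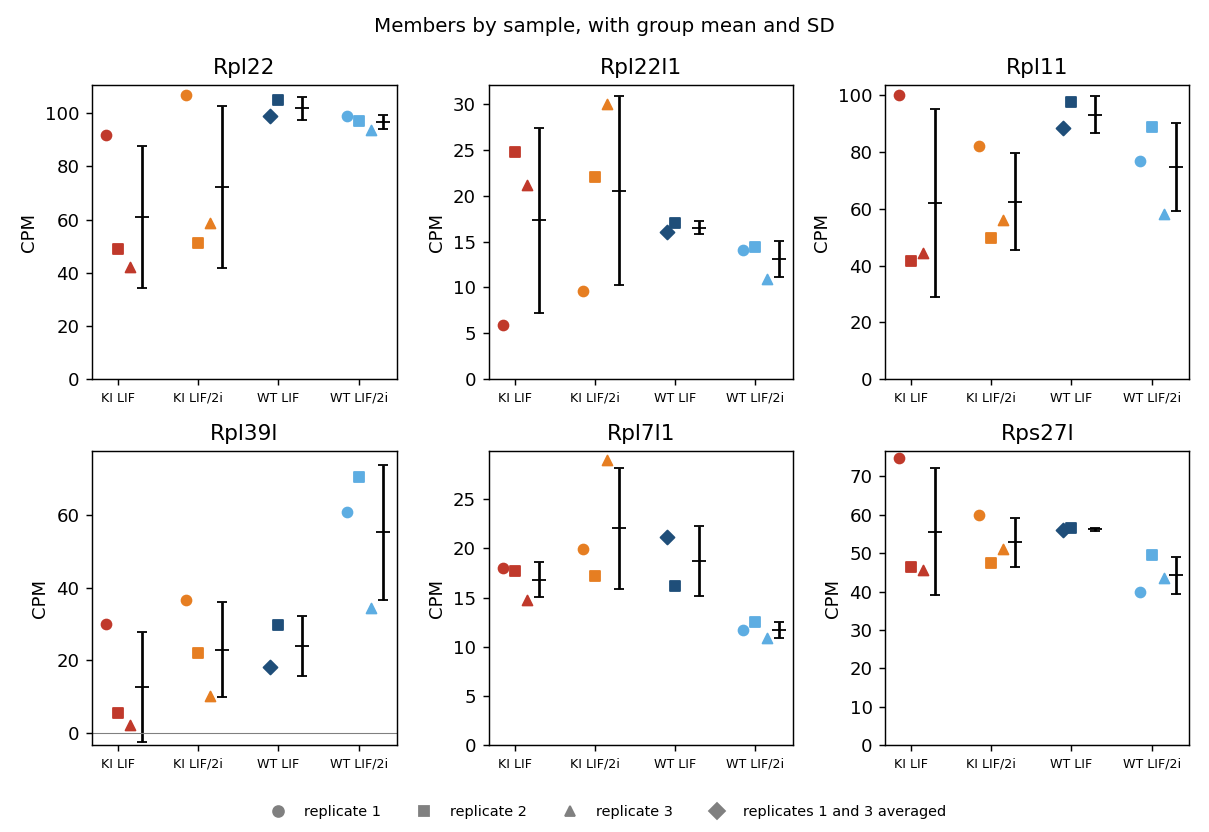
CPM of Rpl22, Rpl22l1, Rpl11, Rpl39l, Rpl7l1 and Rps27l (vertical axes) in each sample by group, with the group mean and SD as bars; the diamond is the average of WT LIF replicates 1 and 3. Rpl22 is at 42.3 to 58.6 CPM in KI replicates 2 and 3 and at 91.7 to 107 CPM in all other samples, and Rpl22l1 runs the other way within KI.

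The medium was compared within each genotype, LIF against LIF/2i. In WT none of the 83 members passed edgeR's test, where 13% of all genes did. The unadjusted p was under 0.05 for 4 members, 2 higher and 2 lower in LIF, where 27.5% of all genes had such a p. DESeq2 called 0 members (16.7% of all genes) and limma-voom 0 (13.8%). The members were split evenly, 45 above 0 and 38 below, with a median log2 fold change of 0.03 and quartiles of -0.12 and 0.19. The quartiles of all genes were -0.34 and 0.36. LIF and LIF/2i samples did not overlap for 14 members higher in LIF (24.3% of all genes) and 11 lower (24.5%). For 59 members the 95% interval lay within ±1, and the 46 members at or above 50 CPM ran from -0.35 to 0.34.

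Rpl7l1 had the smallest p in WT, with 21.2 and 16.2 CPM in LIF and 11.7, 12.5 and 10.9 CPM in LIF/2i. The LIF samples were all higher (0.67 ± 0.26, adjusted p = 0.121, edgeR). Rpl27a, another large subunit protein, had 83.4 and 82.6 CPM in LIF, against 98.1, 118 and 101 CPM in LIF/2i. All LIF samples were lower (-0.35 ± 0.15, adjusted p = 0.155). Rpl8 had 1937 and 1885 CPM in LIF, against 2458, 2252 and 2236 CPM in LIF/2i, again without overlap (-0.28 ± 0.13, adjusted p = 0.196). Fau, which encodes the small subunit protein eS30 and lies outside the rule, had 44.7 and 51.2 CPM in LIF and 64.5, 61.2 and 58.1 CPM in LIF/2i (-0.35 ± 0.15, adjusted p = 0.161).

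In KI none of the 83 members passed edgeR's test between LIF and LIF/2i either, where 9.06% of all genes did. The unadjusted p was under 0.05 for 14 members, 5 higher and 9 lower in LIF (23.7% of all genes). DESeq2 called 3 members, Rpl28 as higher and Rpl10l and Rpl7 as lower, among 12.3% of all genes. Limma-voom called 0 members (7.99% of all genes). In this comparison the replicate number was taken as a pairing, since same-numbered KI samples deviated together in both media. For number 3 the pairing was weak, since KI LIF replicate 3 went about as closely with KI LIF/2i replicate 2 (r = 0.214) as with replicate 3 (r = 0.219). With the number as a block over 12 libraries, edgeR called Rpl28 higher (0.55, adjusted p = 0.0259) and Rplp2 lower in LIF (-0.86, adjusted p = 0.0421), where 11.4% of all genes were called. With the 6 KI libraries alone and the block, a fit added after the data were seen, 4 members were called, where 16.6% of all genes were. They were Rpl28 (0.55, adjusted p = 0.0209), Rplp2 (-0.85, adjusted p = 0.0215), Rps24 (-1.20, adjusted p = 0.0351) and Rps2 (-0.95, adjusted p = 0.0404). The family median was -0.01, with 41 members above 0 and 42 below and quartiles of -0.17 and 0.14. LIF and LIF/2i samples did not overlap for 11 members higher in LIF (13.3% of all genes) and 8 lower (13.9%).

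Rpl28, a large subunit protein, had 96.2, 99.1 and 82.1 CPM in KI LIF, against 69.6, 73 and 49.9 CPM in KI LIF/2i. Every LIF sample was above every LIF/2i sample, by 0.53 ± 0.16 on the log2 scale without the block (adjusted p = 0.0671). In WT it had 64.5 and 76.4 CPM in LIF and 73, 75.3 and 66.3 CPM in LIF/2i, with a log2 fold change of -0.02 ± 0.18. None of its windows was unique to the gene. Rplp2 had 13.5, 24.6 and 20.3 CPM in KI LIF and 23.9, 33.1 and 53.4 CPM in KI LIF/2i. The samples overlapped across numbers, but each number was lower in LIF (-0.90 ± 0.30 without the block, adjusted p = 0.0823). Over 24 alternatives this ran from -1.13 to -0.53, with adjusted p from 0.0215 to 0.264.

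Rpl10l, a testis-expressed retrogene of the X-linked Rpl10, had 12.8, 7.72 and 6.35 CPM in KI LIF, against 12.8, 25.8 and 29.4 CPM in KI LIF/2i. Replicate 1 had the same level in both media, and replicates 2 and 3 were lower in LIF. The log2 fold change was -1.33 ± 0.41 (adjusted p = 0.065), and -0.73 ± 0.45 in WT, where the values were 7.59 and 8.34 CPM in LIF and 17.7, 14.5 and 6.69 CPM in LIF/2i. Without KI LIF replicate 1 the KI difference was -1.66 (adjusted p = 0.0492), and without KI LIF/2i replicate 1 it was -1.62 (adjusted p = 0.0225). In Rpl10l 60.4% of windows were unique, and the others were shared with 1 gene, a pseudogene. No 30-base window was shared with Rpl10, which stood at 2.11 CPM per kb against 21.1 for Rpl10l.

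Rps2, Rps24 and Rpl7 shared a pattern in KI. Rps2, a small subunit protein near the messenger RNA entry, had 7.96, 6.68 and 7.19 CPM in LIF, against 11.5, 12.2 and 20.8 CPM in LIF/2i. Rps24 had 2.77, 3.13 and 4.23 CPM in LIF, against 5.22, 6.35 and 13.6 CPM in LIF/2i. Rpl7 had 4.5, 5.22 and 1.69 CPM in LIF, against 7.1, 7.47 and 18.3 CPM in LIF/2i. In each the LIF samples were all lower, and LIF/2i replicate 3 was far above replicates 1 and 2. The log2 fold changes were -1.02 ± 0.35, -1.31 ± 0.50 and -1.45 ± 0.47, with edgeR adjusted p of 0.0955, 0.128 and 0.078. Without KI LIF/2i replicate 3 they were -0.70, -0.79 and -0.87, none past the test. WT samples of these genes overlapped between media, with the averaged WT LIF sample high at 13.7, 10.4 and 10.1 CPM. All 3 stood at or under 14.1 CPM per kb and shared windows with other genes, Rps2 with 97.

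**Figure D5:**
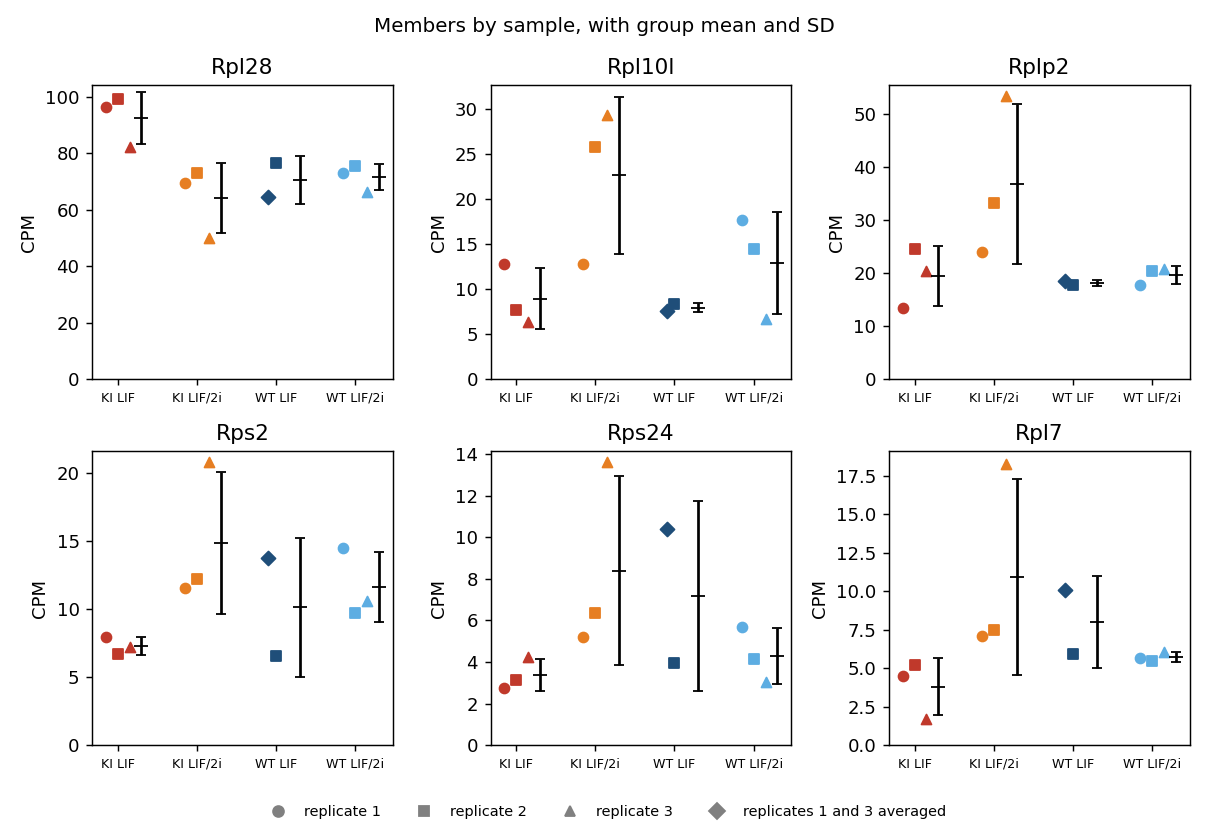
CPM of Rpl28, Rpl10l, Rplp2, Rps2, Rps24 and Rpl7 (vertical axes) in each sample by group, with the group mean and SD as bars; the diamond is the average of WT LIF replicates 1 and 3. In KI the LIF samples of Rpl28 are all above and those of Rps2, Rps24 and Rpl7 all below the LIF/2i samples, and KI LIF/2i replicate 3 is the highest sample for Rplp2, Rps2, Rps24, Rpl7 and Rpl10l.

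Whether the genotype effect differed between the media was tested as an interaction, KI against WT in LIF minus KI against WT in LIF/2i. No member passed it (0 of 83, edgeR), and of all genes 0% did. The unadjusted p was under 0.05 for 10 members, 5 in each direction, where 6.03% of all genes had such a p. DESeq2 called 0 members (0.174% of all genes) and limma-voom 0 (0%). The lowest values were those of Rps24 (-2.03 ± 0.71) and Rpl7 (-1.93 ± 0.68), with Rpl7l1 at -1.05 ± 0.36. Rpl27a stood at 0.59 ± 0.20 (edgeR adjusted p = 0.771 for each of the 4). For 46 members the 95% interval of the interaction lay within ±1, so a difference between media of 2-fold was not bounded for the others.

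Genes with a role beyond the ribosome were read as a fixed panel. Rpl23, which also binds MDM2, had 142, 133 and 143 CPM in KI LIF/2i and 144, 155 and 154 CPM in WT LIF/2i (-0.11 ± 0.13, adjusted p = 0.641). Rpl5 was counted too thinly for a comparison, at 0.304 to 2.53 CPM. Rps6, the target of the S6 kinases, had 59.6, 74.8 and 96.9 CPM in KI LIF/2i and 64, 70.1 and 63.2 CPM in WT LIF/2i, which overlapped (0.23 ± 0.18, adjusted p = 0.498). Rps19 and Rps26, both mutated in Diamond-Blackfan anaemia, differed by 0.09 ± 0.13 and 0.40 ± 0.24 in LIF/2i. Rpl38, known for Hox gene translation in mouse embryos, differed by 0.16 ± 0.14. Rpl10a and Rps25, subunits linked to internal ribosome entry, differed by 0.08 ± 0.16 and 0.22 ± 0.15, and Rpl13a by 0.02 ± 0.12. None of these passed edgeR's test, with adjusted p between 0.36 and 0.948. For Rpl13a the 95% interval ran from -0.23 to 0.27.

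Other genes of the pathway were counted by lists. Of 67 ribosome biogenesis factors 4 rose in KI against WT in LIF/2i and 0 fell (edgeR), where 0.974% of all genes rose. The 4 were Nip7 and Heatr1, factors of large and small subunit assembly, and Bysl and Rrp12, which act on the small subunit precursor. Heatr1 had 624, 724 and 770 CPM in KI and 490, 465 and 356 CPM in WT (log2 fold change 0.69 ± 0.15, adjusted p = 0.0372). Nip7 had 60.2, 65.7 and 62.9 CPM in KI and 37.1, 37 and 34.4 CPM in WT (0.80 ± 0.14, adjusted p = 0.0179). KI samples were above WT samples in both. The median over the list was 0.37, with 62 of 67 above 0, against 0.13 over the ribosomal protein genes and 0.02 over all genes. In LIF none of the 67 passed edgeR's test, with a median of 0.24 and 53 above 0.

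Between media, Ebna1bp2, a large subunit assembly factor, rose in LIF in both genotypes, by 0.53 ± 0.12 in KI (adjusted p = 0.021) and 0.54 ± 0.14 in WT (adjusted p = 0.024). Myc, the transcription factor known to drive ribosome biogenesis, had 51.2, 34.6 and 65.6 CPM in KI LIF and 13.3, 7.6 and 18.1 CPM in KI LIF/2i. In WT it had 29.7 and 36.4 CPM in LIF and 6.79, 3.33 and 1.82 CPM in LIF/2i. All LIF samples were higher, and the log2 fold change was 1.96 ± 0.39 in KI (adjusted p = 0.0103) and 2.98 ± 0.46 in WT (adjusted p = 0.0023). Mycn, its relative, rose in LIF in KI (0.79 ± 0.19, adjusted p = 0.0252). No other biogenesis factor passed the test between media. That made 3 of 67 called in KI and 2 of 67 in WT, where 9.06% and 13% of all genes were called. The list medians were 0.06 in KI and 0.17 in WT. The ribosomal protein genes had medians of -0.01 in KI and 0.03 in WT in the same comparison.

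None of 20 other TOP messenger RNAs passed edgeR's test in any of the 5 comparisons, and their medians were 0.22 and 0.05 between KI and WT in LIF/2i and LIF and -0.01 and 0.09 between media in KI and WT. None of 16 ribosomal protein chaperones and TOP regulators passed it either. Among these, Mdm2 lay at -0.76 ± 0.24 between KI and WT in LIF/2i (adjusted p = 0.111) and at -0.53 ± 0.26 in LIF (adjusted p = 0.515). In LIF/2i it had 202, 153 and 206 CPM in KI and 287, 295 and 367 CPM in WT. In LIF it had 321, 158 and 171 CPM in KI, against 309 and 315 CPM in WT. There KI replicate 1 was above both WT samples, and only KI replicates 2 and 3 were below them. Larp1 lay at 0.48 ± 0.16 between media in WT (adjusted p = 0.0641). Rack1, a ribosomal protein outside the rule, had 2758, 3105 and 2901 CPM in KI LIF/2i and 3047, 3143 and 3000 CPM in WT LIF/2i (-0.07 ± 0.10, adjusted p = 0.74).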

How the data were processed

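Counts of reads over the coding sequence of 1 transcript per gene were deposited by the authors in 1 table without normalization, per the file headers. UMI-tools 1.0.1, Bowtie 1.3.0 and cutadapt 3.4 were used, per the submitters' processing notes. The genome build, the annotation, strandedness and the handling of multiply matching reads were not given in the sources used here. Of 22416 transcripts 22155 were found in GENCODE M21 (GRCm38), 21766 with the same symbol; coordinates are from it. Libraries held 2307219 to 9713857 counts, and the floor of 3 counts covers counting error only.

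The 2 WT LIF libraries whose counts did not differ beyond sampling noise (replicates 1 and 3) entered as their rounded mean, so 11 samples were fitted where the design had foreseen 12 libraries. Genes were kept with filterByExpr (minimum count 10), leaving 13239. TMM factors ran from 0.945 to 1.04. The model was that of edgeR 4.0.16 under R 4.3.3 (robust quasi-likelihood, 1 mean per group, two-sided, Benjamini-Hochberg over all genes at 0.05; biological coefficient of variation 0.234). The code of the test was run on simulated counts with the same dispersion for every gene and unlinked libraries. Such a run does not give the error rate in these data. Levels are TMM-scaled CPM. P-values reflect how far these samples lie apart, and that spread may be technical.

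Members and lists were chosen with earlier results of these data known. Named members were the 5 highest, the 5 lowest and the 5 of smallest p per comparison, the 5 highest and lowest per kb, and a panel of paralog pairs, stalk, MDM2-binding and other subunits. Members named for their spread, shared sequence or chromosome position, Rpl32 among them, were chosen after their values were seen. Some genes that the rule or the lists take are not reported here. Neighbour medians use log2(CPM + 0.5). Deviations from group means of same-numbered KI samples correlated across media by 0.5, 0.372 and 0.219, so the number was taken as a pairing there. Between KI samples of different number the correlation ran from -0.42 to 0.214, so number 3 was hardly told from number 2. The pairing comes from the counts, as the labels state none. Elsewhere 1 or more same-numbered pairs fell under 0.1. Alternatives were DESeq2 1.42.0, limma-voom (limma 3.58.1), other scalings and filters, a replicate block, single groups and leaving out each library.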

Additional observations from a re-analysis of the deposited data

How the results depend on the processing

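Members called between KI and WT in LIF/2i numbered 0 with edgeR and 1 with DESeq2 or with the 12 libraries kept separate (Rpl7l1 in both), and 0 to 2 when 1 library was left out. The 2 were Rplp2 and Rpl7l1, without KI LIF/2i replicate 1. Between media in WT there was 1 call with only the groups compared (Rpl39l), 1 with 12 libraries separate and 1 with the replicate block (Rpl7l1 in both), a block that the numbers of WT samples did not bear out. Between media in KI there were 3 with DESeq2, 1 with 12 libraries separate, 2 with the replicate block, 4 with the block in KI libraries alone, and 0 to 2 when 1 library was left out. The block gave 0 calls in KI against WT in either medium and in the interaction. The member median between KI and WT in LIF/2i ran from 0.06 (without KI LIF/2i replicate 3) to 0.16 when 1 library was left out. With library totals alone the medians between media became 0.07 in KI and 0.10 in WT. The interaction median ran from -0.11 (without WT LIF replicate 2) to 0.00. The member share in WT LIF became 1.14% without mitochondrially encoded genes and 1.09% for canonical subunits only. The other 116 medians, 102 counts of calls and 26 shares stayed within 1.5-fold or the spread between replicates. Of the values of named members under the alternatives, 22 came past the threshold and 5228 stayed on their side of it. Depth limits the members under 5 CPM, where 3 counts are up to 1.3 CPM, and their fold changes are hardly bounded. Windows of 25 or 50 bases in place of 30, chosen after seeing the data, gave correlations of level with the unique share of 0.43 and 0.44 over the canonical subunits and 0.24 and 0.27 over all members.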
